A study of Mus musculus with 8 samples.

Results

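Replication-dependent histone genes encode the histones that package newly copied DNA. They were described here in mouse liver, in wild types and in homozygous Pus1 mutants. Members were all genes whose RefSeq symbol begins with H2ac, H2bc, H3c or H4c and a number, or is H1f1 to H1f5, the genes once named Hist1h to Hist4h. Of 64 such genes in the annotation, 42 had a probe on the array, out of 20972 named genes with a probe. The 42 were 5 linker histone H1 genes, 12 H2A, 10 H2B, 7 H3 and 8 H4 genes, read by 47 probes. H1f6, H2aw, H2bu2 and H4f16 had older Hist names but not these symbols and were not counted. The group was picked because its log2 ratios of mutant over wild type had been seen, so those ratios are given as a description without a test.

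Each nucleosome holds DNA around an octamer of the core histones H2A, H2B, H3 and H4, and H1 binds the linker DNA between nucleosomes. The replication-dependent genes lie in clusters, have no introns, and are transcribed mainly while a cell copies its DNA. Their main mRNA form ends in a stem-loop bound by the protein SLBP in place of a poly(A) tail. Adult hepatocytes divide rarely, and variant histones from genes outside these clusters serve cells that are not dividing. The labelling kit copies RNA from its poly(A) tail, so the tailless form is poorly placed to be read. Which form of these transcripts gave the signals was not tested.

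Pus1 encodes pseudouridine synthase 1, which modifies uridines in tRNAs and other RNAs. Livers came from 4 homozygous mutants and 4 wild types, aged 14 to 16 weeks, all of strain C57BL/6J, to which the line had been backcrossed for 5 generations, with 2 females and 2 males of each genotype. Each of 4 2-colour Agilent arrays of 1 slide held the RNA of a mutant and of a wild type of the same sex, arrays 1 and 2 females and arrays 3 and 4 males. Livers are numbered by their array. The mutant carried Cy5 on arrays 1 and 3 and Cy3 on arrays 2 and 4, so each sex holds both dye orientations. The labels do not describe the mutant allele or the strain it was made in. The labels name each liver as that of an individual and do not say whether any were littermates.

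The Pus1 probe read 8.45, 8.91, 8.46 and 8.83 in wild types 1 to 4 and 6.31, 6.80, 6.64 and 6.76 in mutants 1 to 4, as log2 intensity. It was well above background in 4 wild types and 0 mutants, and its measured level was 4.10-fold higher in wild types. The bound from the background marks is no more than this measured fold. The place of the probe relative to the mutation is unknown here. All 5 hepatocyte markers (Alb, Apoa1, Ttr, Hnf4a and Cps1) were well above background in all 8 livers. Of all spots, 42.2% to 44.0% were well above background in the 4 females and 36.8% to 37.9% in the 4 males. In the limma fit of the ratios, 0 of 17550 features (genes or unnamed transcripts) passed for genotype at an adjusted p under 0.05 (0%), and 1564 (8.91%) had an unadjusted p under 0.05. With 4 arrays the precision of each value is limited. Whole liver was measured, so fewer cells of a type and less RNA per cell cannot be told apart.

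All 42 genes lie on chromosome 13 (35 genes) or chromosome 3 (7 genes), away from Pus1 on chromosome 5. The upstream bases of 5 genes are shown to let the promoter architecture be seen beside the class values, in each class the gene with the highest mean log2 ratio among those that passed the filter on dim probes. They are RefSeq sequences of build GRCm38.p6, the 250 bases before the annotated start, 5′ to 3′ on the plus strand, at chr13:23738557-23738806 (H1f2), chr13:23750838-23751087 (H2ac4), chr13:21721794-21722043 (H2bc14), chr3:96268404-96268653 (H3c13) and chr13:21734784-21735033 (H4c11). Capitals mark matches in either strand to 4 motifs, none of which overlapped another in these 5. The motif TATAAA was taken for the TATA box. The box bound by NF-Y was searched as CCAAT and the octamer bound by OCT1 as ATTTGCAT. For sites of E2F, which drives genes of DNA synthesis, the letters were TTTGGCGC.
H1f2: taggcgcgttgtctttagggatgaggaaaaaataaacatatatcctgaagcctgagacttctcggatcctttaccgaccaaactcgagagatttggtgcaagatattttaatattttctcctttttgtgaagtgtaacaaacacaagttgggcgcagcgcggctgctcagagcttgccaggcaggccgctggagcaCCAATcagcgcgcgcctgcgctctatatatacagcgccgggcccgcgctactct
H2ac4: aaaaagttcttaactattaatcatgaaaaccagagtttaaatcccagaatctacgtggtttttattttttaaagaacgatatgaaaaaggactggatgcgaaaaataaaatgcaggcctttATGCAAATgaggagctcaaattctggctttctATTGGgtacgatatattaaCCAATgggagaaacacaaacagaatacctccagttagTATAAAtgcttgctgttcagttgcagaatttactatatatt
H2bc14: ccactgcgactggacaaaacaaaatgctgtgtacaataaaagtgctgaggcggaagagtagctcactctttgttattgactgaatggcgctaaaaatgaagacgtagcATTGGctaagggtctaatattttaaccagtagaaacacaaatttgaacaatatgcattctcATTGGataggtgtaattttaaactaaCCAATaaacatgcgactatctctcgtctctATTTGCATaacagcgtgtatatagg
H3c13: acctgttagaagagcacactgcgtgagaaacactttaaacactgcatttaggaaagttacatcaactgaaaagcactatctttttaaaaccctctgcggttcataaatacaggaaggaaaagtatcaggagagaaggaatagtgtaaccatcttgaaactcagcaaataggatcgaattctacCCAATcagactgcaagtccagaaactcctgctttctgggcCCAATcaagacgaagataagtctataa
H4c11: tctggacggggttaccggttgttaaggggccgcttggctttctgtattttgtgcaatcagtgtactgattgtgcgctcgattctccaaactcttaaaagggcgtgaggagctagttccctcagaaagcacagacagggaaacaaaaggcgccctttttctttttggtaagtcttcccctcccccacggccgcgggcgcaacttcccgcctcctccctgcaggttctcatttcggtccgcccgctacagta

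A CCAAT box lay 54 bases before the start of H1f2. H2ac4 held 2 CCAAT boxes, an octamer 129 bases and a TATA box 41 bases before its start, and H2bc14 held 3 CCAAT boxes and an octamer 25 bases before its start. H3c13 had 2 CCAAT boxes, and no match to the 4 motifs was found in this window of H4c11. Promoter entries were at hand for 57 of the 64 genes and for 37 of the 42 with a probe, H2bc21, H2bc4, H3c1, H3c7 and H4c14 having none. CCAAT was found in all 5 H1 promoters, all 17 H2A, all 14 H2B and 8 of 10 H3 promoters, but in 3 of 11 H4 promoters, against 33.8% of all 32851 promoters of that length. The octamer was found in 6 H2A and 7 H2B promoters and in 0 of the other 26, against 1.6% of all. TATAAA was found in 28 of 57, against 12.4% of all, and TTTGGCGC in 0 of 57, against 0.417% of all. For 9 pairs of an H2A and an H2B gene on opposite strands the windows of the RefSeq table, which run 50 bases past the start, shared 220 to 279 bases, so those pairs are not separate counts. Such matches are letters in a window and were not tested as sites.

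After the filter, which asked for a signal well above background in at least 4 of 8 livers, 28 of the 42 genes were kept, 3 H1, 8 H2A, 5 H2B, 4 H3 and 8 H4 genes. Of these, 25 were well above background in all 8 livers. The other 14 were too dim. They were H1f1, H1f3, H2ac1, H2ac21, H2ac6, H2ac8, H2bc21, H2bc22, H2bc23, H2bc3, H2bc8, H3c1, H3c7 and H3c8. Of the 14, 7 were never well above background, 4 were so in 1 liver and 3 (H1f1, H2bc21 and H3c1) in 3 livers, in each case female livers. Their mean log2 ratios ran from −0.13 to 0.43. Just inside the filter were H2bc18, with 4 livers well above background, and H3c11 with 5. The genes of a class differ little in their coding sequence, and probe sequences were not used here, so a probe may read several copies and the values of a class are not independent of each other.

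The ratios were read class by class and are plotted for each array. Ratios here are log2 of mutant over wild type, corrected for background and normalized by loess within the array. Of the 28 genes, 26 had a mean ratio above 0 and 2, both of class H4, below 0. One of the 26, H2bc18, had passed the filter through the mutants alone. Their median was 0.22, against −0.01 over all features tested. On all 4 arrays 11 of the 28 were higher in mutants and 0 were lower, where 8.98% of all features were higher on all 4 and 8.72% were lower on all 4. Since the group was chosen on this contrast, nothing is read from these shares. Of the 11, 7 were H2A genes, 2 H2B (H2bc1 and H2bc14), 1 H1 (H1f2) and 1 H3 (H3c13). Without the filter, 14 of 42 were higher on all 4 arrays, where 6.99% of all features were. That count of 11 depended on the normalization. With each array centred on its median in place of loess it was 1 (H1f2), and the share of all features higher on all 4 arrays was then 2.60%. Without array 4 the number of genes higher on each remaining array was 20. Agreement on fewer arrays is easier to reach, and no share of all features was taken for it, so it is not comparable with the 11.

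**Figure D1:**
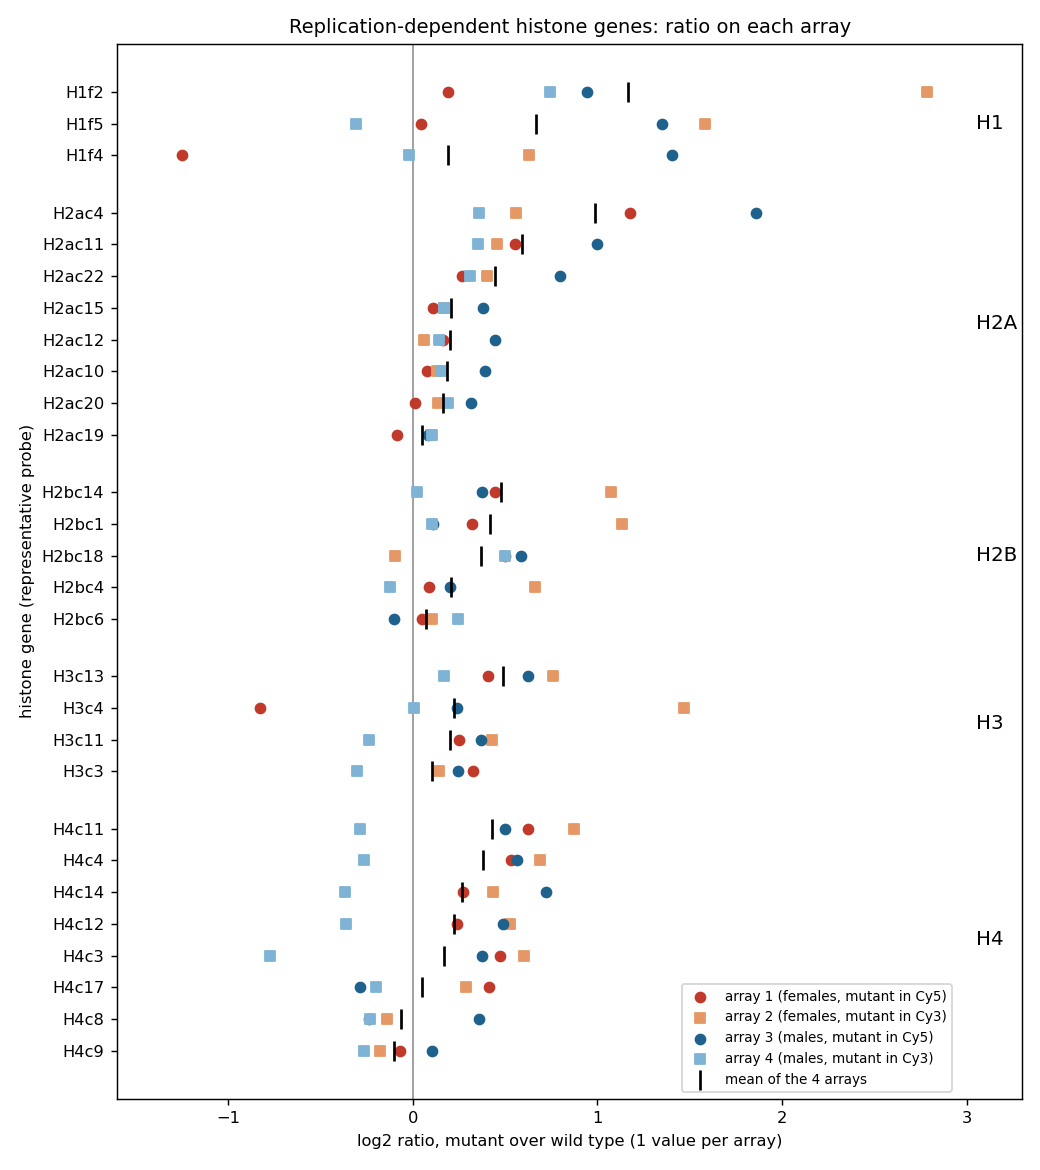
Log2 ratio of mutant over wild type (x axis) for the 28 histone genes that passed the filter, 1 symbol per array and a bar for the mean of 4 arrays, grouped by class. The H1 genes run from −1.25 to 2.79, 7 of 8 H2A genes are above 0 on all arrays, and all 8 H4 genes are below 0 on array 4 (pale squares).

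The linker histones varied widely between livers. H1f2 encodes the linker histone H1.2 and read 11.96, 9.86, 10.01 and 10.86 in wild types 1 to 4 and 12.15, 12.64, 10.95 and 11.60 in mutants 1 to 4, as log2 intensity. Wild types 2, 3 and 4 lay below all mutants, but wild type 1 lay above mutants 3 and 4, so the groups overlapped. Its ratios on arrays 1 to 4 were 0.19, 2.79, 0.94 and 0.74, with a mean of 1.17 ± 1.13 (SD, n = 4 arrays), or 2.24-fold, the highest mean of the 28. Array 2 carries much of it, and without array 2 the mean was 0.65.

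H1f4, which encodes H1.4, read 12.21, 10.90, 10.21 and 11.18 in wild types 1 to 4 and 10.96, 11.54, 11.61 and 11.16 in mutants 1 to 4. The highest liver and the lowest were both wild types, and all mutants lay between them. Its ratios were −1.25, 0.63, 1.40 and −0.02, far below 0 on array 1 and far above it on array 3, with a mean of 0.19 ± 1.12 (SD, n = 4 arrays). H1f5, which encodes H1.5, read 8.34, 7.28, 7.75 and 8.14 in wild types 1 to 4 and 8.38, 8.87, 9.10 and 7.84 in mutants 1 to 4. Mutants 2 and 3 were the highest and wild types 2 and 3 the lowest, with the other 4 livers between them. Its ratios were 0.04, 1.58, 1.35 and −0.31 (mean 0.67 ± 0.94, SD over 4 arrays).

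Wild type 1 was the highest wild type for all 3 H1 genes. The class median was 0.04 on array 1, 1.58 on array 2, 1.35 on array 3 and −0.02 on array 4. The SD over arrays was 0.94 to 1.13 for these 3 genes, against a median of 0.26 over all features. So the H1 ratios were large on arrays 2 and 3 and near 0 in the median on arrays 1 and 4. The class median of the fitted ratio was 0.67, and 0.19 without array 2, 0.34 without array 3 and 1.14 without array 4.

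Of the 8 H2A genes 7 were higher in mutants on all 4 arrays with loess, and 0 with median centring. H2ac19, of the cluster on chromosome 3, read 14.87, 14.87, 15.21 and 15.10 in wild types 1 to 4 and 14.79, 14.97, 15.30 and 15.21 in mutants 1 to 4. The groups overlapped, and the 4 males were above the 4 females. Its ratios were −0.08, 0.10, 0.08 and 0.10 (mean 0.05 ± 0.09, SD over 4 arrays). A second H2ac19 probe gave −0.09, −0.09, −0.03 and −0.21, below 0 on all 4 arrays, so its direction depends on the probe.

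H2ac15 read 14.72, 14.77, 15.03 and 15.04 in wild types 1 to 4 and 14.83, 14.95, 15.41 and 15.20 in mutants 1 to 4. Within each sex both mutants were above both wild types, though over all 8 livers the groups overlapped. Its ratios were 0.11, 0.17, 0.38 and 0.17 (mean 0.21 ± 0.12, SD over 4 arrays), and a second, dimmer probe gave 0.30, 1.00, 0.68 and 0.48. H2ac20 read 14.60, 14.67, 14.93 and 14.95 in wild types 1 to 4 and 14.62, 14.81, 15.25 and 15.14 in mutants 1 to 4. In each sex the highest liver was a mutant, and the groups overlapped. Its ratios were 0.01, 0.14, 0.32 and 0.19 (mean 0.17 ± 0.13, SD over 4 arrays).

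H2ac10 (0.19 ± 0.14 SD), H2ac12 (0.20 ± 0.17 SD) and H2ac22 (0.44 ± 0.24 SD) were also higher on all 4 arrays. H2ac11 was the only member of the 28 whose mutants and wild types did not overlap (1 of 28, against 2.13% of all features), and it read 13.18, 13.51, 13.58 and 13.736 in wild types 1 to 4 and 13.740, 13.97, 14.58 and 14.09 in mutants 1 to 4. Wild type 4 and mutant 1 all but touched. Its ratios were 0.56, 0.46, 1.00 and 0.35 (mean 0.59 ± 0.28, SD over 4 arrays, 1.51-fold). H2ac4 had the highest H2A ratio and was singled out after its values were seen. It read 9.12, 9.53, 9.73 and 10.26 in wild types 1 to 4 and 10.30, 10.08, 11.59 and 10.62 in mutants 1 to 4. Mutant 3 stood highest by far, wild type 1 was the lowest, and wild type 4 lay above mutant 2. Its ratios were 1.18, 0.56, 1.86 and 0.36 (mean 0.99 ± 0.68, SD over 4 arrays, 1.98-fold).

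The median of the 8 H2A genes was 0.14, 0.16, 0.42 and 0.18 on arrays 1 to 4, the highest being array 3, and mutant 3 was the highest mutant for all 8 genes. Wild type 1 was the lowest wild type for 7 of 8 and mutant 1 the lowest mutant for 7 of 8, though level with mutant 2 at 14.674 for H2ac12. The size and direction on single arrays depended on the dye correction. With median centring the H2A medians were 0.97 and 1.25 on arrays 1 and 3, where the mutant carried Cy5, and −0.33 and −0.57 on arrays 2 and 4, where it carried Cy3. The class median of the fitted ratio, which averages both orientations, was 0.21 with loess and 0.32 with median centring. None of these spots was saturated. The 1495 features at least as bright as H2ac22, the dimmest of the 7 bright H2A genes, had medians of −0.03, −0.08, −0.02 and 0.02 on arrays 1 to 4.

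**Figure D2:**
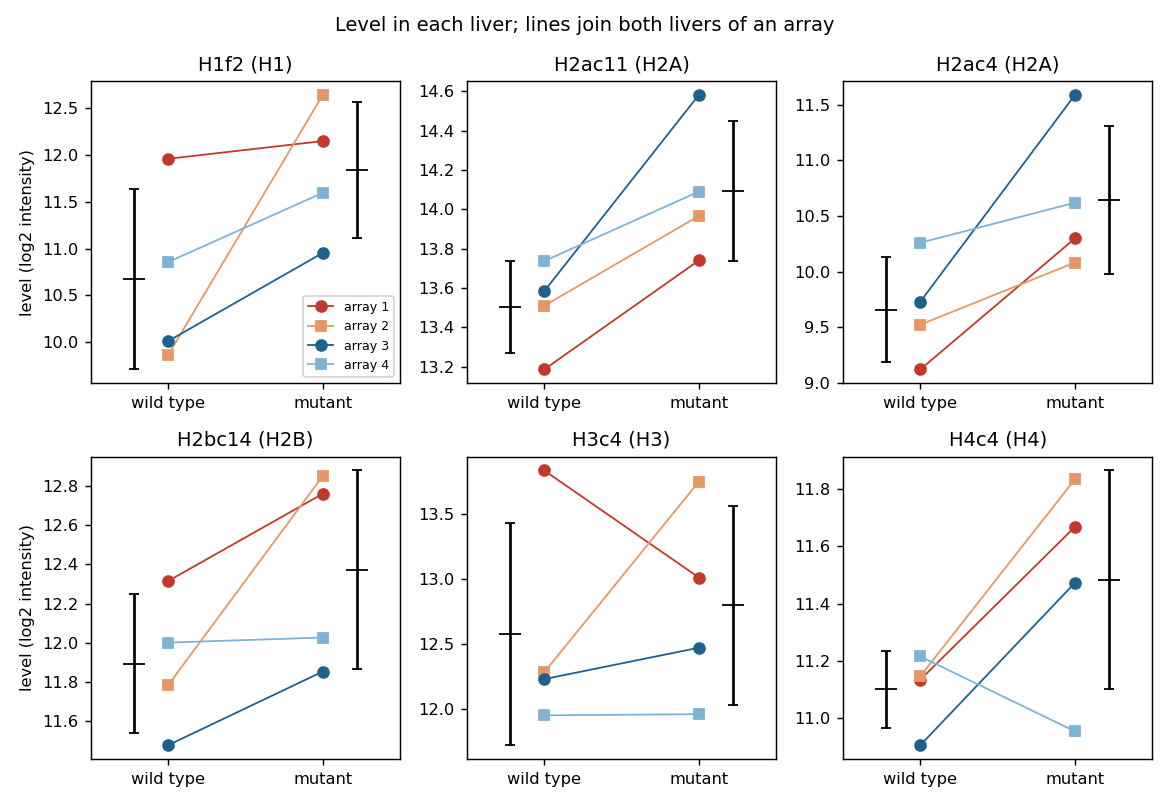
Level in log2 intensity (y axis) of 6 histone genes in each liver, with a line joining the wild type and the mutant of an array and a bar for the mean ± SD of the 4 livers of a genotype. H2ac11 and H2ac4 climb on each of the 4 lines, H3c4 runs down on array 1 and up on array 2, and H4c4 runs down on array 4 alone. The y axes do not start at 0 and differ between genes.

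H2B partners H2A in the nucleosome. H2bc4 read 14.70, 14.11, 14.10 and 14.69 in wild types 1 to 4 and 14.78, 14.77, 14.30 and 14.57 in mutants 1 to 4. The 2 lowest livers were wild types 2 and 3, while wild types 1 and 4 lay within the mutants. Its ratios were 0.09, 0.66, 0.20 and −0.12 (mean 0.21 ± 0.33, SD over 4 arrays). H2bc14 read 12.31, 11.78, 11.47 and 12 in wild types 1 to 4 and 12.76, 12.85, 11.85 and 12.03 in mutants 1 to 4. Both female mutants were the highest livers and wild type 3 the lowest, and the groups overlapped. Its ratios were 0.45, 1.07, 0.38 and 0.03 (mean 0.48 ± 0.44, SD over 4 arrays), near 0 on array 4.

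H2bc1, which in mouse is known from testis, read 12.14, 11.14, 11.35 and 11.75 in wild types 1 to 4 and 12.46, 12.27, 11.46 and 11.86 in mutants 1 to 4. The female mutants were again highest and wild type 2 lowest. Its ratios were 0.32, 1.13, 0.11 and 0.11 (mean 0.42 ± 0.49, SD over 4 arrays), with array 2 well above the others. H2bc6 had a mean ratio of 0.07 ± 0.14 (SD, n = 4 arrays) and was below 0 on array 3. H2bc18 was well above background in each of the 4 mutants and in 0 wild types. It passed the filter through the group where it is high, so the filter favoured a difference. Its bound of at least 1.29-fold is no more than its measured fold and supports nothing. Its ratios were 0.50, −0.09, 0.59 and 0.50. With the scanner software's processed signals its mean ratio was 1.35 and 1.38 in the deposited series values, against 0.37 here. The H2B medians on arrays 1 to 4 were 0.32, 0.66, 0.20 and 0.11. The class median of the fitted ratio was 0.37, which is the value of H2bc18 itself, and 0.16 without array 2. Over the H2B genes well above background in all 8 livers, which leave H2bc18 out, it was 0.31.

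Histone H3 carries many of the tail modifications of chromatin. H3c4 read 13.84, 12.28, 12.23 and 11.95 in wild types 1 to 4 and 13.01, 13.75, 12.47 and 11.96 in mutants 1 to 4. Wild type 1 and mutant 2 were the highest livers and the 4 males lay close together with wild type 2. Its ratios were −0.83, 1.47, 0.24 and 0.01 (mean 0.22 ± 0.95, SD over 4 arrays), the arrays of the females pointing in opposite directions. H3c3 read 8.53, 8.45, 8.54 and 8.59 in wild types 1 to 4 and 8.85, 8.60, 8.79 and 8.29 in mutants 1 to 4. Mutant 4 was the lowest of all and mutant 1 the highest, so the wild types lay inside the range of the mutants. Its ratios were 0.33, 0.14, 0.25 and −0.30 (mean 0.10 ± 0.28, SD over 4 arrays).

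H3c13, of the smaller cluster on chromosome 3, read 8.29, 7.69, 8.02 and 8.09 in wild types 1 to 4 and 8.70, 8.45, 8.64 and 8.26 in mutants 1 to 4. Mutants 1, 2 and 3 lay above all wild types and mutant 4 just under wild type 1. Its ratios were 0.41, 0.76, 0.63 and 0.17 (mean 0.49 ± 0.26, SD over 4 arrays, 1.40-fold). H3c11 had ratios of 0.25, 0.43, 0.37 and −0.24, and mutant 4 read 6.70 against 7.27 to 7.38 in the other mutants. Mutant 4 was the lowest mutant for all 4 H3 genes, and the class medians were 0.29, 0.60, 0.31 and −0.11 on arrays 1 to 4. That of the fitted ratio was 0.21, and 0.36 without array 1, 0.015 without array 2 and 0.48 without array 4.

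The H4 genes encode the same protein from many copies, and all 8 with a probe passed the filter. H4c12 read 12.68, 12.47, 12.36 and 12.87 in wild types 1 to 4 and 12.92, 13.003, 12.85 and 12.51 in mutants 1 to 4. Wild type 4 was above mutants 3 and 4, and wild types 1, 2 and 3 were below mutants 1, 2 and 3. Its ratios were 0.24, 0.53, 0.49 and −0.36 (mean 0.23 ± 0.41, SD over 4 arrays), and its second probe gave 0.42, 0.76, 0.42 and −0.28. H4c14 read 12.46, 12.46, 12.14 and 12.63 in wild types 1 to 4 and 12.73, 12.89, 12.86 and 12.27 in mutants 1 to 4. Mutants 1, 2 and 3 were the highest livers and mutant 4 lay below 3 of the wild types. Its ratios were 0.27, 0.43, 0.72 and −0.36 (mean 0.27 ± 0.46, SD over 4 arrays). Its second probe, well above background in 2 livers only, gave −0.08, −0.11, 0.28 and −0.47, with a mean below 0.

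H4c4 read 11.13, 11.15, 10.91 and 11.22 in wild types 1 to 4 and 11.67, 11.83, 11.47 and 10.96 in mutants 1 to 4. Mutants 1, 2 and 3 were above all wild types and mutant 4 was below 3 of them. Its ratios were 0.53, 0.69, 0.57 and −0.26 (mean 0.38 ± 0.43, SD over 4 arrays). H4c11 (0.43 ± 0.50, SD over 4 arrays) and H4c3 (0.17 ± 0.63, SD over 4 arrays) likewise were above 0 on arrays 1 to 3 and below 0 on array 4. H4c17 had ratios of 0.41, 0.29, −0.29 and −0.20, above 0 in females and below 0 in males. H4c8 (−0.06 ± 0.28, SD over 4 arrays) and H4c9 (−0.10 ± 0.16, SD over 4 arrays) were above 0 on array 3 alone. A second H4c9 probe gave 1.01, 1.05, 0.52 and −0.56, unlike the −0.07, −0.17, 0.10 and −0.26 of the brighter probe that stands for the gene.

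The H4 medians were 0.34, 0.48, 0.43 and −0.28 on arrays 1 to 4. All 8 H4 genes were lower in the mutant on array 4, by 0.20 to 0.77 on the log2 scale, whereas 6, 6 and 7 of 8 were higher on arrays 1 to 3. Wild type 4 was the highest wild type for all 8, and mutant 4 the lowest mutant for 5 of 8. Array 2 has the same dye orientation as array 4. The same 8 of 8 were below 0 on array 4 with processed signals and in the deposited series table. Median centring also put them below 0, but with it all 8 H2A and all 4 H3 genes were below 0 on that array too. The class median of the fitted ratio was 0.46 without array 4 and −0.03 without array 2.

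Genes that work with the histones were set beside them, from lists chosen with earlier results of these data known. In the limma fit 0 genes of the 5 lists passed for genotype. Of all features 8.98% were higher and 8.72% lower on all 4 arrays. The list counts were taken with loess only and were not run with median centring. The 10 tested genes listed under replication-independent histones had a median log2 ratio of 0.16, with 4 higher and 0 lower on all 4 arrays. The list also holds H4f16, a gene for histone H4 on chromosome 6 with an older Hist name. Only its symbol kept H4f16 from the members, and whether it is independent of replication was not tested. The ratios of H4f16, 0.25, 0.55, 0.68 and −0.27, had the signs of the H4 medians. H2az1, which encodes the variant H2A.Z, had log2 ratios of 0.13, 1.10, 0.72 and 0.67 on arrays 1 to 4, and Cenpa, the histone H3 of centromeres, had a mean of 0.40 ± 0.17 (SD). H3f3b, which encodes the variant H3.3, had ratios of −1.43, 2.61, 0.08 and 0.18, opposite on the arrays of the females as H3c4 was. The 16 tested genes for processing of histone mRNA had a median of 0.01, with 1 higher (Casp8ap2) and 2 lower (Cstf2 and Cstf3) on all 4 arrays. Slbp, the stem-loop binding protein, had ratios of −0.09, 0.06, 0.37 and 0.13. The 15 tested histone chaperones and deposition factors had a median of −0.06, with 1 higher on all 4 arrays, Asf1b (0.32 ± 0.21 SD), which hands H3 and H4 on behind the replication fork.

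The 20 tested genes of DNA synthesis had a median log2 ratio of 0.40, with 10 higher and 2 lower on all 4 arrays. The shares of all features were 8.98% and 8.72%. Mcm6, of the helicase that opens the DNA, had ratios of 1.00, 1.77, 1.45 and 0.51, and Rrm2, of the reductase that makes deoxynucleotides, 0.39, 1.17, 1.57 and 0.81. Their array medians of 0.37, 0.58, 0.64 and 0.13 were lowest on array 4, as were those of the classes H1, H2B, H3 and H4. The 10 tested genes of mitosis had a median of 1.13, with 9 higher on all 4 arrays and Cdk1 the exception. Their array medians were 0.66, 0.85, 1.85 and 0.82, highest on array 3 like those of H2A. Neither trait is particular to these lists. The hepatocyte markers, with array medians of 0.12, 0.10, 0.47 and 0.04, were also highest on array 3 and lowest on array 4. The list of replication-independent histones was highest on array 3 too (0.18), whereas the Kupffer cell and neutrophil markers were highest on array 2.

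Markers of the cell types of liver were read in the same way, with loess only. All 12 Kupffer cell markers were higher in mutants on all 4 arrays, where 8.98% of all features were. Their median log2 ratio was 0.66, with mean levels of the list from 9.97 to 10.8 in wild types and from 10.6 to 11.3 in mutants. The 4 tested neutrophil markers had a median of 0.96, all 4 with a mean above 0 (Elane at only 0.02) and 1 higher on all 4 arrays. Their array medians were uneven, at −0.02, 1.69, 1.53 and 0.56 on arrays 1 to 4. Mean levels of this list ran from 8.38 to 9.89 in wild types and from 9.87 to 10.4 in mutants. Ly6g, Mpo, Ngp and Ltf did not pass the filter or had no probe here. Of 9 tested red cell precursor markers 2 were higher and 1 was lower on all 4 arrays (median −0.10, mean levels 9.82 to 11.2 in wild types and 9.88 to 11.1 in mutants), and Gata1 was under the filter. Lymphocyte (−0.01), endothelial (0.02), stellate (0.07) and cholangiocyte (0.02) markers had medians near 0, and the hepatocyte markers had a median of 0.22. The part of these cells in the histone ratios was not tested.

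**Figure D3:**
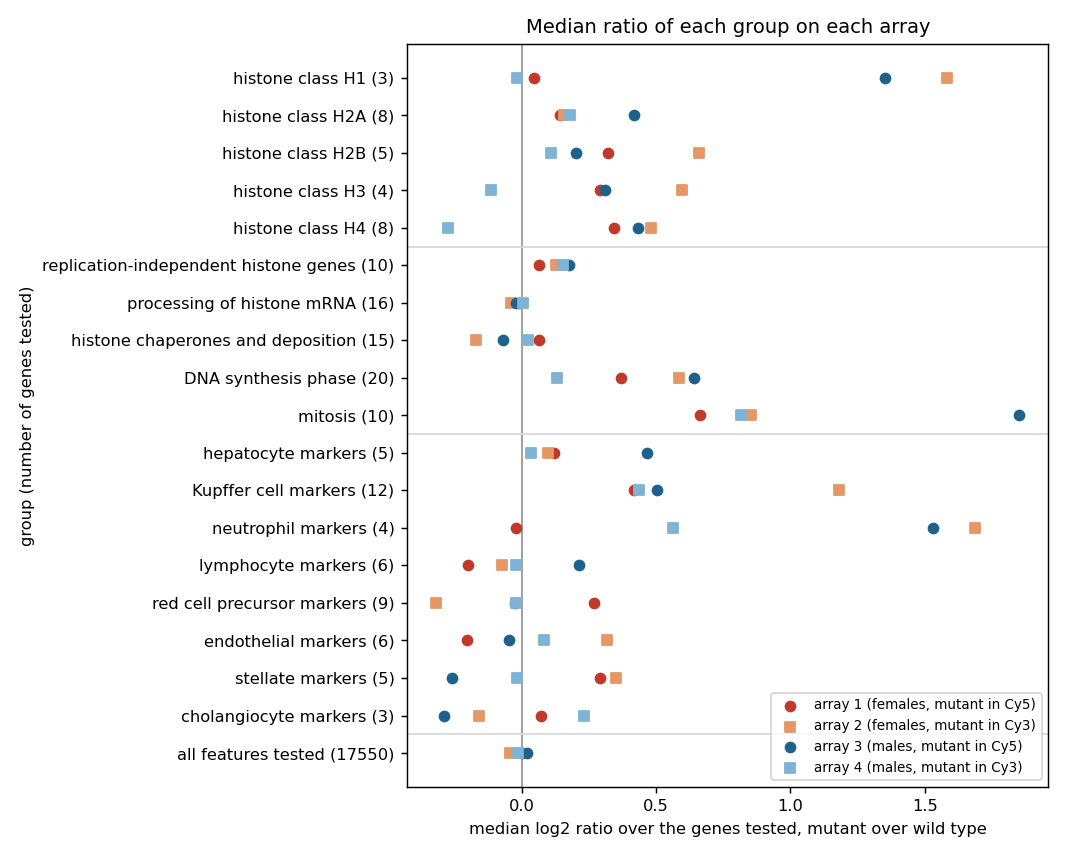
Median log2 ratio of mutant over wild type (x axis) on each array for the 5 histone classes, the lists set beside them, the cell type markers and all features tested, with the number of genes tested in brackets. The H2A medians lie between 0.14 and 0.42, the H4 median changes sign on array 4, and all features together lie near 0 on each array.

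Male and female livers were compared as a contrast that the choice of members did not use. Both livers of an array were of the same sex, so a difference by sex cannot be told apart from a difference between arrays. In a limma separate-channel fit of all 8 livers, 0 of 28 histone genes differed by sex at an adjusted p under 0.05, where 37 of all 17529 features did (0.211%). At an unadjusted p under 0.05 there were 2 of 28, where 16.4% of all features had one. The lowest adjusted p among the 28 was 0.265, that of H4c9, which was higher in males by 0.47 ± 0.16 (SE) on the log2 scale. H2ac4 was higher in males by 0.79 ± 0.31 (SE), with an adjusted p of 0.301. Without array 2, H2ac4 and H3c4 passed (lowest adjusted p = 0.0288), but 1682 of all features passed then too. When both livers of an array were not paired in the fit, H2ac20, H2ac4 and H4c9 passed (lowest adjusted p = 0.0181). In that fit 3251 of the 17529 features passed, so no sex difference of the histone genes is read from either count.

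All 8 H2A genes had a fitted difference toward males, from 0.31 to 0.79 on the log2 scale with adjusted p from 0.301 to 0.460. In 5 of them (H2ac10, H2ac12, H2ac15, H2ac19 and H2ac20) and in H4c9 the 4 males were all above the 4 females, 6 of 28 genes where 24.8% of all features had sexes that did not overlap. For H2ac19 the means were 14.88 ± 0.07 (SD, n = 4) in females and 15.21 ± 0.08 (SD, n = 4) in males. Both livers of an array were of the same sex and were not independent (within-spot correlation 0.795). These SDs and the separation of males from females therefore include differences between arrays. Among the 1495 features at least as bright as H2ac22, a cut that leaves H2ac4 out, the median difference was 0.02 and 52.5% were higher in males. In 12.1% of these bright features the males were all above the females. All 3 H1 and all 4 H3 genes had a difference toward females, the largest being H3c4 (male minus female −1.07 ± 0.82 (SE), adjusted p = 0.567). H2bc14 was at −0.59 ± 0.36 (SE) and the only H2B gene toward males was H2bc18 (0.27 ± 0.22 (SE)). The H4 genes were divided, 4 toward each sex. None of these passed, and the standard errors of the H1 genes, 0.95 to 1.06, leave room for differences of either sign.

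**Figure D4:**
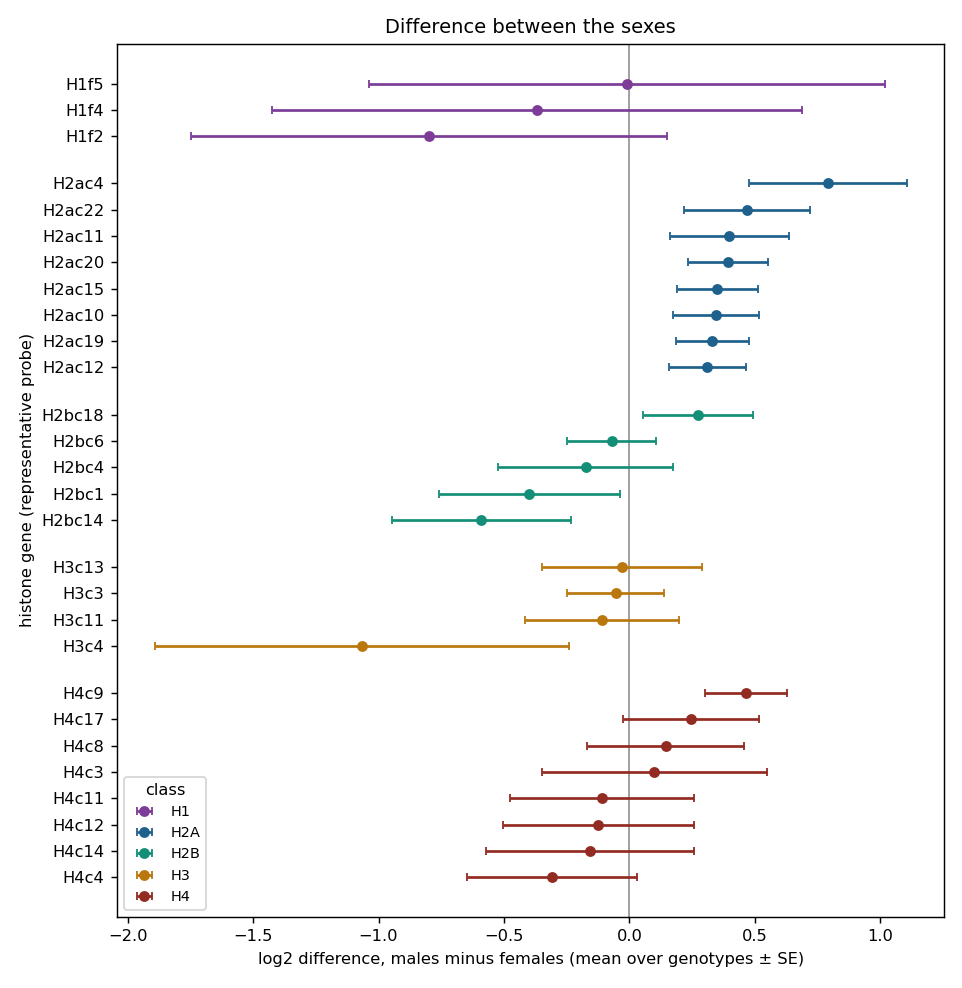
Log2 difference between males and females (x axis, males minus females averaged over genotypes, with bars for the SE of the separate-channel fit) for the 28 histone genes by class. All 8 H2A genes lie to the right of 0 and all H1 and H3 genes to the left, and no gene passed at an adjusted p under 0.05.

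In the lists set beside the histones, 0 genes passed for sex. The genes with the smallest unadjusted p were H2az2 (0.57 ± 0.17 SE) and Macroh2a2 (0.35 ± 0.13 SE) among the replication-independent histones, and Cstf3 (−0.75 ± 0.17 SE) and Srrt (−0.70 ± 0.18 SE) in histone mRNA processing. Among the chaperones they were Chaf1b (0.86 ± 0.31 SE) and Hat1 (0.45 ± 0.19 SE), and in DNA synthesis Pcna (−0.57 ± 0.27 SE) and Ccne1 (0.84 ± 0.43 SE). In mitosis, where all 10 genes were toward males, they were Ccnb2 (1.497 ± 0.32 SE) and Birc5 (1.47 ± 0.33 SE). Of the cell type markers, Alas2 of the red cell precursors passed for sex, and its list had a median male minus female difference of 1.39.

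The difference of the genotype ratio between the sexes was tested on the same ratios. Of the 28 genes, 0 passed at an adjusted p under 0.05, as did 0 of all 17550 features (0%), and 1 of 28, H4c17, had an unadjusted p under 0.05, where 5.85% of all features did. H4c17 had a mean log2 ratio of 0.35 on the arrays of the females and −0.24 on those of the males, and the lowest adjusted p of the group was 0.823. That fit leaves 1 residual degree of freedom per gene and each sex holds only 2 arrays. On simulated data it called none of the genes made to differ, so no absence of a difference is read from the 0 calls. H4c3 had 0.54 in females and −0.20 in males, and H2bc1 0.73 in females and 0.11 in males. The H2A genes ran the other way, all 8 with a higher mean on the arrays of males, as H2ac4 with 0.87 in females and 1.11 in males, but within the spread between arrays. Array 3 carries most of it, with H2A medians of 0.14, 0.16, 0.42 and 0.18 on arrays 1 to 4. H2ac4 had 1.86 on array 3 and 0.36 on array 4, the latter below both arrays of the females.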

How the data were processed

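The labels gave genotype and sex of the 8 livers. The array files came from Agilent Feature Extraction 10.7.3.1, per the file headers, and give each spot 1 linear intensity per channel and kind of reading (median signal, local background and processed signal) and 0 or 1 marks of other kinds, such as well above background. The deposited series values are log2, of unstated scale and centring, and served only as an alternative. Labelled cRNA was made from 200 ng of RNA per the labels' protocols. A further 68 per-sample columns went unused.

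Background was corrected with normexp at an offset of 50, and loess was applied within arrays, in limma 3.58.1 (R 4.3.3), with files read by data.table, version 1.17.8. Control spots had no weight, marked spots were left out and spots of a probe were averaged. Features well above background in at least 4 of 8 livers were tested (17550, of which 17529 had a value on all arrays), a gene standing by its brightest probe. RefSeq accessions (GRCm38.p6) gave the symbols.

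The genotype fit used the ratios with a dye coefficient, so the array is the block, and the genotype-by-sex fit a coefficient per sex. The sex fit used single channels after Aquantile normalization with a within-spot correlation of 0.795. Empirical Bayes moderation and Benjamini-Hochberg adjustment over all features were used, with a threshold of 0.05. For H2bc18 and Pus1 the bound is against the higher of the lowest well-above-background signal and its own. Replicate numbers name a shared array and so pair the samples, whose deviations correlated at 0.685, 0.176, 0.561 and 0.646 across features. Fits were tested on simulated data, where those for genotype and sex called genes made to differ and that for genotype by sex called none.

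Members, lists and named genes were chosen with earlier results of these data known. Every member passing the filter was named, and every liver's value given for up to 3 members a class, those above background in most livers and then the brightest. H2ac4 and H2ac11 were added after their values were seen. Python 3.11.15 with pandas 2.3.3 read the sequences, and matplotlib 3.10.9 drew the figures. Some genes of the marker and pathway lists are counted but not reported here by name.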

Additional observations from a re-analysis of the deposited data

Results flagged for a closer look

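In 56 groups of 4 livers, the 28 histone genes in each genotype, 1 liver stood apart from the other 3 by Dixon's criterion. It was mutant 4 for H3c11, which read 6.70 against 7.27 to 7.38 in the other mutants, a gap of 0.836 of the range. Chance marks about 1 in 20 such groups.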

How the results depend on the processing

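The number of arrays and the brightness of the probes over background limit these values. The class medians of the log2 ratio stayed within 1 SD of the arrays under all alternatives run, but that SD is wide. Without array 2 the median fell from 0.67 to 0.19 for H1, from 0.37 to 0.16 for H2B, from 0.21 to 0.015 for H3 and from 0.20 to −0.03 for H4, and without array 4 it was 1.14 for H1, 0.48 for H3 and 0.46 for H4. Without the filter it was 0.43 for H1 and 0.18 for H2B, H3 had 0.39 with processed signals and in the series table, and H2A had 0.32 with median centring. Of 305 values of single members under the alternatives, 296 stayed within 1 SD and 10 had the other sign. The members higher in mutants on all 4 arrays numbered 11, and 1 with median centring. With an array left out, those higher on each remaining array numbered 12 to 20 (20 without array 4). This last alternative and the series table (14) were added after the data were seen. Counts with an array left out have no share of all features beside them and are not comparable with the 11. Genotype calls over all features were 0, and 1 with offset 16, with median centring, with no filter and with no dye coefficient, and from 0 to 1519 with an array left out (1519 without array 4). Without the replicate block, that is with the pairing by array ignored, there were 2. Sex calls over all features were 37, against 6 when all 8 livers had to be above background, 3251 without the pairing by array, and 53 to 1682 with an array left out (1682 without array 2, 353 without array 1 and 82 without array 3). Those fits kept the within-spot correlation of all arrays. Of the histone genes 0 passed for sex, against 3 without the replicate block, an alternative added after the data were seen, and 0 to 2 with an array left out (2 without array 2). Genotype-by-sex calls were 0 under each alternative run, and with an array left out that fit has no residual degrees of freedom.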
